A study of Mus musculus with 6 samples.

Results

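Glycolysis and hypoxia-inducible genes were examined in the B lymphoma line CH12F3-2A, of mouse origin, after siRNA against Spt6, a chaperone of histones. The 34 genes were taken by symbol or synonym (Pkm is listed as Pkm2 on the array), out of 16390 named genes, and each was read through its brightest probe. They comprise 17 glycolytic enzymes, 4 regulators of glycolytic flux, 4 transporters of glucose or lactate, 3 genes of oxygen sensing and 6 further targets of the hypoxia-inducible factor HIF. Cells of 1 group received a control siRNA (siControl, 3 samples) and those of the other an siRNA against Spt6 (siSpt6, 3 samples). Both groups were electroporated, left for 24 h, given the switch-inducing mixture CIT (CD40 ligand, interleukin 4 and TGF-beta) and harvested 24 h later, so no unstimulated cells enter this comparison. The study addresses the role of Spt6 in class switching, and its arrays show which transcripts differ when Spt6 is targeted in stimulated cells. All samples come from 1 cell line, the labels do not say whether replicates were separate cultures, and the p-values reflect the spread among these arrays alone, part or all of which may be technical.

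Glycolysis splits glucose into pyruvate in the cytosol, and lactate dehydrogenase turns pyruvate into lactate, which leaves the cell through monocarboxylate transporters. Many of the enzymes exist as several isozymes encoded by paralogous genes, of which 1 usually dominates in a given tissue. HIF, a pair of an oxygen-labile alpha subunit such as HIF-1 alpha and a stable partner, binds short DNA elements beside many glycolytic genes and beside genes with other roles, such as Vegfa. In oxygen, prolyl hydroxylases of the Egln family mark the alpha subunit for breakdown through the VHL ubiquitin ligase. Activated and malignant B cells are known for a high use of glucose, and the transcription factor Myc is a further known activator of glycolytic genes.

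On each array, between 21526 and 22372 of 23473 probes had a value, given as an intensity in arbitrary units, and log2 intensities correlated with r of 0.988 to 0.991 within groups and 0.975 to 0.981 between groups across probes, which are not independent replicates. The targeted gene, Supt6, has a single probe, with intensities from 32.1 to 33.1 in siControl and from 21.8 to 28.1 in siSpt6. Its level in siSpt6 was 0.767 times that in siControl (log2 change -0.38, SE 0.13), which missed the threshold over all probes (limma adjusted p = 0.0973), and passed it only after cyclic loess normalization. Of 9 tested B cell markers, 8 had a mean of at least 38.4 in both groups, among them Cd79b, Ms4a1 and Blnk, while the probe named for Ighm read 32.6 and 43.7. Cd79b was called higher and Cd22 lower (log2 changes 0.55 and -0.62). The 5 T cell markers read between 1.82 and 20.8 on average, and 0 of them were called by limma (0 at an unadjusted p under 0.05). Of 3 myeloid markers, Cd68 read 182 in siControl and 217 in siSpt6, Csf1r 60.5 and 65.3 and Itgam 1.82 and 1.24. Cd68 and Csf1r were thus brighter than the B cell marker Pax5 (39.4 and 38.4). The fibroblast markers Col1a1 and Col1a2 read between 9.58 and 19.0 on average. None of these myeloid and fibroblast markers was called. Lower RNA per cell and fewer cells that express a gene cannot be told apart in such bulk samples.

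Lower transcript levels were seen at most steps of glycolysis, at lactate export and in part of the HIF targets. Of 32 tested genes of the set, 16 fell and 1 rose in siSpt6 (adjusted p under 0.05 by limma, with Benjamini-Hochberg correction across 21584 probes), with a median log2 change of -0.53. Over all 15224 tested genes, 9.65% fell and 7.4% rose (17.0% changed), and the median was -0.0019. Over all tested probes, named or not, 8.9% fell and 7.43% rose (16.3% changed). Among the glycolytic enzymes 11 of 15 tested fell and 0 rose (0 at an unadjusted p under 0.05), with a median of -0.91. All 15 had a negative log2 change as deposited, though Aldoc turned positive after quantile normalization. Of the transporters 2 of 4 fell, both for lactate, and of the flux regulators 1 of 4 fell. Of the 9 genes of oxygen sensing and other HIF targets 2 fell and 1 rose, with a median of -0.078. The groups did not overlap, siSpt6 being lower, in 19 of the 32 genes, and in 21.6% of all genes with 6 values. Without overlap, siSpt6 was higher in 2 genes of the set, Ndrg1 and Egln3, and in 16.9% of all genes with 6 values. Egln3 had values on only 2 arrays per group and is not alike to the genes behind that share. Gapdh was blank on all 6 arrays and Ldhb on the 3 siControl arrays, and neither was tested.

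**Figure D1:**
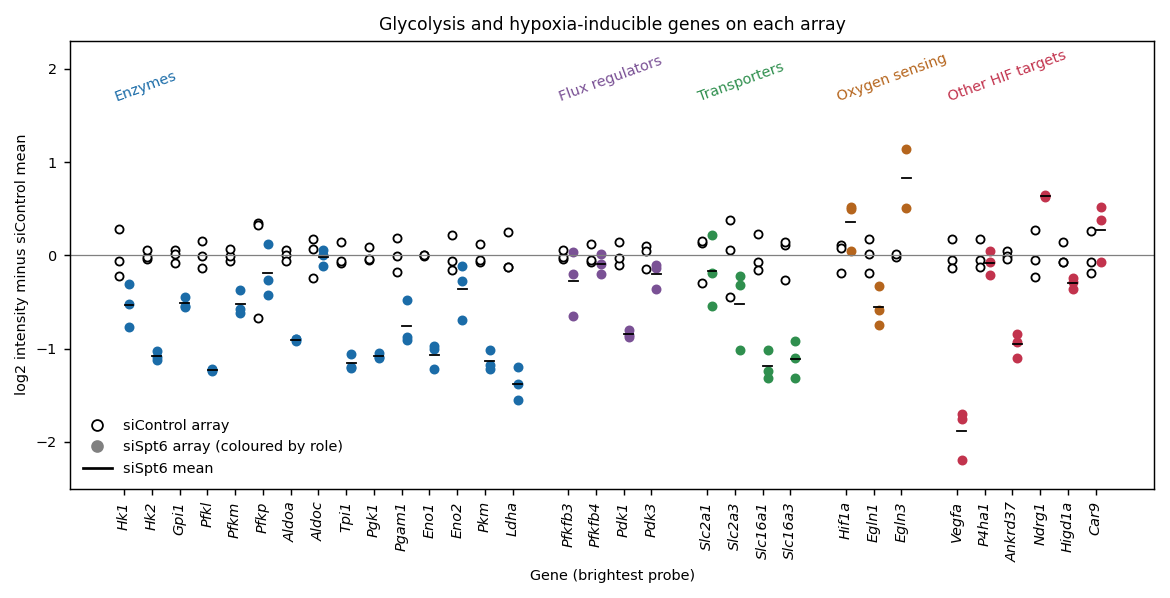
Log2 intensity of the brightest probe of each tested gene on each array, minus the gene's siControl mean (vertical axis), for 32 genes ordered by role (horizontal axis). Open points are siControl arrays, filled points siSpt6 arrays and short lines the siSpt6 means; in 19 genes all siSpt6 points lie below all siControl points, in 2 (Egln3, from 2 arrays a group, and Ndrg1) above them.

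In the deposited values the log2 change depended on brightness, and the brighter genes of the array tended to be lower in siSpt6. Whether this dependence arose in the cells or in the measurement was not tested. Tested genes were divided by brightness into 5 equal bins. In the brightest bin the median log2 change was -0.17 and 22.5% fell, against 0.083 and 2.10% in the dimmest. The shares that rose were 7.22% and 4.07%. Of the enzymes, 9 lie in the brightest bin, and 9 of these 9 fell, with a median of -1.08. Quantile and cyclic loess normalization, which are built to even out such a dependence, each left 9 enzymes that fell and moved the median of the enzymes to -0.61 and -0.60. Over all genes 7.15% fell and 8.68% rose after quantile normalization, and 8.03% and 8.51% after cyclic loess. Of the 17 calls in the set, 13 held in every alternative that tested them, namely the falls of Hk2, Pfkl, Aldoa, Tpi1, Pgk1, Eno1, Pkm, Ldha, Pdk1, Slc16a1, Slc16a3, Vegfa and Ankrd37, Vegfa being too dim for the alternative with bright probes only. The part of the brightness dependence in the enzymes' falls was not otherwise tested.

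**Figure D2:**
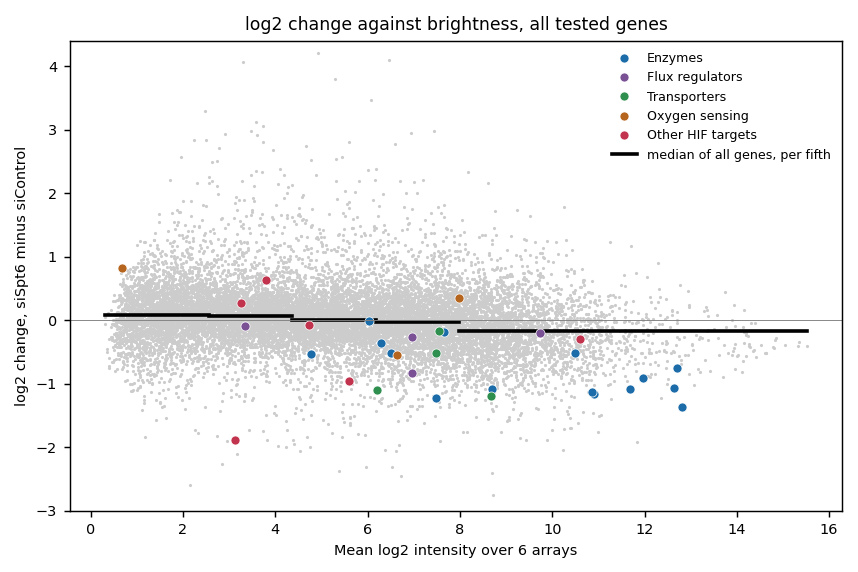
Log2 change, siSpt6 minus siControl (vertical axis), against mean log2 intensity over the 6 arrays (horizontal axis) for 15224 tested genes, 1 grey point each. Black lines are the medians of all genes in each of 5 bins of brightness, from 0.083 in the dimmest to -0.17 in the brightest, and coloured points are the genes of the set by role, with the 9 bright enzymes at the right between -0.51 and -1.38.

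Sequence upstream of the genes was compared because HIF is known to bind the letters ACGTG or GCGTG. Of the 34 genes, 32 had windows in the RefSeq promoter table (GRCm38.p6), 46 windows in all since a gene can have several starts, some of which overlap. In the 250 bases before the start, ACGTG on either strand was present in 22 of 46 windows (47.8%), against 16.6% of all 32851 windows, and GCGTG in 54.3% against 28.2%. The set was chosen for glycolysis and known HIF targets, so a higher share of these letters is no independent result. The windows of the set were also richer in G and C (median 61.0% against 52.4%), which was not adjusted for. Within the set, ACGTG was present in 13 of 27 windows of genes that fell and in 9 of 17 windows of genes that were tested and not called (48.1% and 52.9%). GCGTG was present in 12 of 27 windows of genes that fell (44.4%) and in 11 of 17 of those not called (64.7%). These shares were not tested. CACGTG, the letters bound by Myc and related factors, contains ACGTG and was present in 10.9% of the set's windows against 6.02% of all. A match is a run of letters and no evidence of binding. The windows below, chosen after the values were seen, show 4 genes that fell and hold ACGTG (Ldha, Pgk1, Slc16a3 and Ankrd37), 1 that fell and holds none (Tpi1) and 1 that was not called and holds it (Slc2a1). Each is printed in the direction of the gene, with ACGTG on either strand in capitals. In Ldha 2 of the capital runs are CACGTG. Ldha has 2 windows, and the window not shown holds no ACGTG.
Ldha, chr7:46845554-46845803, plus strand: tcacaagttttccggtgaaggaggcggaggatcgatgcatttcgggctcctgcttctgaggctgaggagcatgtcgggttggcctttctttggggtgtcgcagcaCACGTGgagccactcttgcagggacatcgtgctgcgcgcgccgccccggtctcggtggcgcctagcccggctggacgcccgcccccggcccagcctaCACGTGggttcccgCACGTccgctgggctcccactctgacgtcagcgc
Pgk1, chrX:106186850-106187099, plus strand: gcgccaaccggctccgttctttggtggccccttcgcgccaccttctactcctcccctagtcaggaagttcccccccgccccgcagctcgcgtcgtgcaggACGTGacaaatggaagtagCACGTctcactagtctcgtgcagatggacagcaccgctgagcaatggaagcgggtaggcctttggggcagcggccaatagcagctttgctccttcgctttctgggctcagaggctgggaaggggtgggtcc
Slc16a3, chr11:120948817-120949066, plus strand: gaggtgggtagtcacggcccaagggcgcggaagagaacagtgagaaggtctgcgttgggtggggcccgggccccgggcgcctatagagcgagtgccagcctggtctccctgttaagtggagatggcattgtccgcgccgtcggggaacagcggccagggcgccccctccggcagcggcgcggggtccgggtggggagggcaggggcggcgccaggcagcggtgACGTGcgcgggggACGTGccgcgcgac
Ankrd37, chr8:45999851-46000100, minus strand: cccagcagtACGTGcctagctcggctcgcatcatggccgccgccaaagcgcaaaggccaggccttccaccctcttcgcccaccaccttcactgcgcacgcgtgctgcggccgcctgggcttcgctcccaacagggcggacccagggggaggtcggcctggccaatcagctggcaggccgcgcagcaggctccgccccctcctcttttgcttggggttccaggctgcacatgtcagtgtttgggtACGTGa
Tpi1, chr6:124814159-124814408, minus strand: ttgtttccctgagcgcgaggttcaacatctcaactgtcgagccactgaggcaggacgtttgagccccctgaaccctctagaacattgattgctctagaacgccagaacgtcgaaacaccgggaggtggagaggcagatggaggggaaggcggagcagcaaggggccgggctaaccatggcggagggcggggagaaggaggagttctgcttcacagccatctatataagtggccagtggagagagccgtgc
Slc2a1, chr4:119108495-119108744, plus strand: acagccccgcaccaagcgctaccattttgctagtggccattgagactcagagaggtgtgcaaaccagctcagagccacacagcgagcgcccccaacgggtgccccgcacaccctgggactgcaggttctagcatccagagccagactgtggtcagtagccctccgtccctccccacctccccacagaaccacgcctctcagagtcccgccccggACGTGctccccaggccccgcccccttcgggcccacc

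The first steps of glycolysis trap glucose in the cell and commit it to breakdown. Hk2, the inducible hexokinase, which phosphorylates glucose, had intensities of 587, 594 and 625 in siControl and 276, 282 and 295 in siSpt6. The groups lay far apart, and Hk2 fell 2.12-fold (log2 change -1.08, SE 0.11, limma adjusted p = 0.00181). Hk1, the constitutive hexokinase, read 31.8, 28.3 and 40.3 in siControl and 23.1, 19.4 and 26.7 in siSpt6, without overlap but with more spread (log2 change -0.53, SE 0.18, limma adjusted p = 0.0994). Gpi1, which isomerises glucose 6-phosphate, fell from 1718 ± 86.4 to 1202 ± 45.6 (intensity ± SD, n = 3 each), a 1.43-fold change. Its call was lost after quantile and cyclic loess normalization (log2 changes -0.24 and -0.28, limma adjusted p = 0.188 and 0.121) and in 5 of 6 fits that left out an array (highest limma adjusted p 0.0831).

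Phosphofructokinase, the main control point of the pathway, is built from 3 kinds of subunit. The liver type, Pfkl, read 248, 271 and 302 in siControl and 118, 115 and 117 in siSpt6. The siSpt6 values were tightly grouped, and Pfkl fell 2.34-fold (log2 change -1.23, SE 0.12, limma adjusted p = 0.00178). The muscle type, Pfkm, fell 1.43-fold, from 110 ± 4.62 to 76.8 ± 7.10 (n = 3 each), a call lost with the replicate number as a block and in 5 of 6 fits that left out an array (highest limma adjusted p 0.0927). The platelet type, Pfkp, read 136, 276 and 270 in siControl and 162, 180 and 236 in siSpt6. One siControl array was low, the groups overlapped, and the 95% confidence interval of the log2 change ran from -0.90 to 0.53, wide enough to hold no change as well as a fall of the size seen in Pfkm.

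The middle of the pathway cleaves the sugar and oxidises its pieces. Aldoa, the main aldolase outside liver and brain, read 5692, 5488 and 5229 in siControl and 2890, 2926 and 2938 in siSpt6. No siSpt6 value came near the siControl values, and Aldoa fell 1.87-fold (log2 change -0.91, SE 0.11, limma adjusted p = 0.00297). A dimmer second probe of Aldoa pointed the same way without passing the threshold (log2 change -0.39, limma adjusted p = 0.129). Aldoc, the brain-type aldolase, read between 55.8 and 74.7 in siControl and between 60.9 and 68.8 in siSpt6, with a log2 change of -0.016 (95% confidence interval -0.36 to 0.33). Tpi1, triosephosphate isomerase, fell 2.23-fold from 2852 ± 255 to 1278 ± 77.8. Pgk1, phosphoglycerate kinase, which makes the first ATP of the pathway, read 4614, 4680 and 5096 in siControl and 2238, 2246 and 2327 in siSpt6, a 2.11-fold fall (log2 change -1.08, SE 0.11, limma adjusted p = 0.00195). ACGTG is present in the Pgk1 window printed above and not in that of Tpi1.

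The last steps lead to pyruvate and lactate. Pgam1, phosphoglycerate mutase, fell 1.69-fold from 8735 ± 1088 to 5197 ± 883, a call lost after quantile and cyclic loess normalization (log2 changes -0.41 and -0.42, limma adjusted p = 0.149 and 0.137) and in 4 of 6 fits that left out an array (highest limma adjusted p 0.0820). Eno1, the ubiquitous enolase, read 9246, 9160 and 9233 in siControl and 3952, 4605 and 4682 in siSpt6 and fell 2.09-fold (log2 change -1.07, SE 0.12, limma adjusted p = 0.00254). Eno2, the neuronal enolase, overlapped between groups (log2 change -0.36, SE 0.19, limma adjusted p = 0.254). Pkm, the pyruvate kinase of most tissues, whose splice forms these values do not separate, fell 2.20-fold from 2786 ± 217 to 1267 ± 94.4. Ldha, which makes lactate from pyruvate, fell from 10677, 13879 and 10705 in siControl to 3992, 5077 and 4473 in siSpt6, a 2.60-fold change (log2 change -1.38, SE 0.16, limma adjusted p = 0.00291). This was the largest fall of an enzyme as deposited, while after quantile and cyclic loess normalization that of Pfkl was larger (-1.15 and -1.16, against -1.02 and -1.03 for Ldha). Pseudogene copies of several of these genes are known, and the sources used here do not say whether the probes tell them apart.

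**Figure D3:**
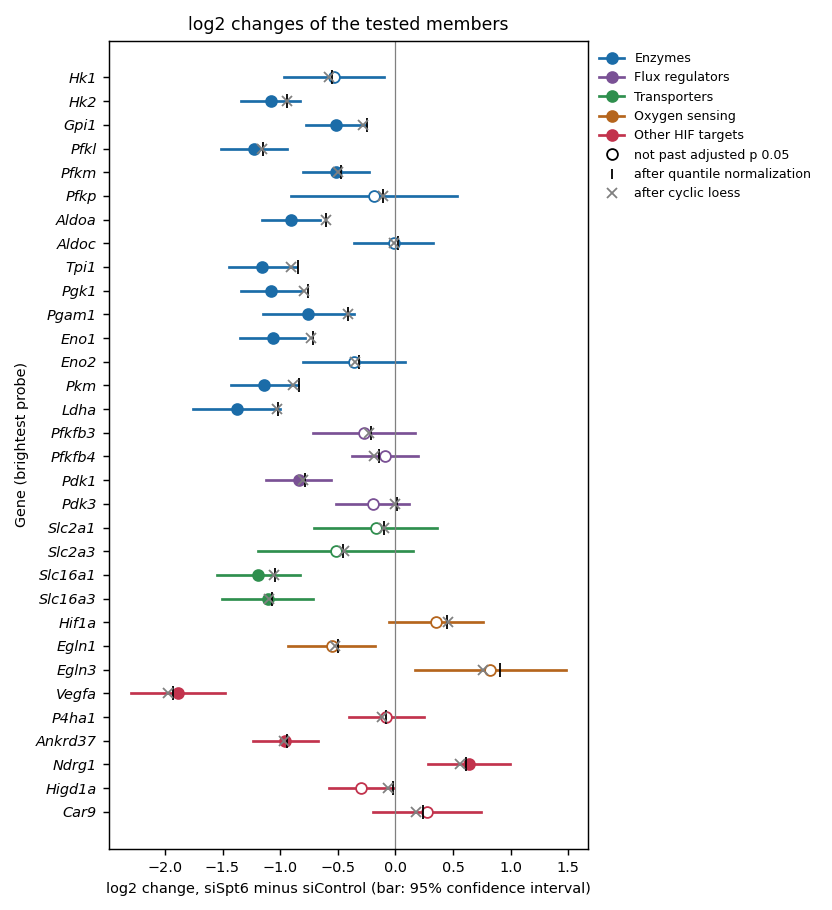
Log2 change, siSpt6 minus siControl, of each of the 32 tested genes (horizontal axis) with its 95% confidence interval, coloured by role; filled points passed the limma adjusted p threshold and open points did not. Vertical ticks and crosses are the values after quantile and cyclic loess normalization, which lie closer to 0 for the bright enzymes, as for Ldha at -1.02 and -1.03.

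Paralogous genes were compared within arrays, as the log2 value of 1 probe minus that of the other. This addresses unequal change and says nothing of unequal levels. In 6 of 10 pairs this difference did not overlap between groups. Each of the 6 had p = 0.1 in a two-sided exact permutation test, the smallest that 3 against 3 arrays can give (adjusted p = 0.167 over the 10 pairs). Separation is common on these arrays: of single genes with 6 values, 21.6% were lower and 16.9% higher without overlap. The share among other pairs of genes was not computed, so the count of 6 has no background to be read against. The Pfk pairs share members and are not independent. Pfkl minus Pfkm was 1.23, 1.31 and 1.40 in siControl and 0.47, 0.68 and 0.66 in siSpt6, a shift of -0.71 (SE 0.08), lower on every siSpt6 array than on any siControl array. Pfkl also shifted against Pfkp, by -1.04 (SE 0.32). Hk1 minus Hk2 shifted by 0.55 (SE 0.17), Aldoa minus Aldoc by -0.89 (SE 0.15) and Pdk1 minus Pdk3 by -0.64 (SE 0.16). After quantile and cyclic loess normalization Hk1 minus Hk2 shrank to 0.39 and 0.37 and Aldoa minus Aldoc to -0.63 and -0.59. Pdk1 minus Pdk3 grew to -0.79 in both. Eno1 minus Eno2 shifted by -0.71 (SE 0.23), a value that moved to -0.40 and -0.38 after quantile and cyclic loess normalization. In the other 4 pairs the groups overlapped, among them the lactate transporters Slc16a1 minus Slc16a3 at -0.080 (SE 0.25, of the opposite sign after either normalization) and the glucose transporters Slc2a1 minus Slc2a3 at 0.35 (SE 0.33).

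**Figure D4:**
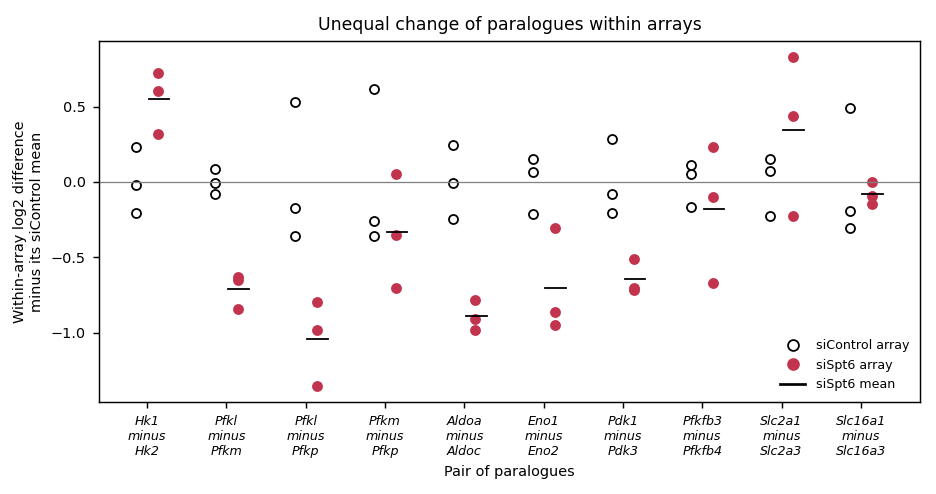
Within-array log2 difference between 2 paralogues, minus its siControl mean (vertical axis), for 10 pairs (horizontal axis), with open points for siControl arrays, red points for siSpt6 arrays and lines for the siSpt6 means. The points separate by group in 6 pairs, with siSpt6 lower in 5 and higher in Hk1 minus Hk2.

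Of the regulators of flux only Pdk1 passed the threshold. Pdk1, a kinase that holds back the oxidation of pyruvate in mitochondria, read 156, 164 and 185 in siControl and 93.1, 91.7 and 96.1 in siSpt6. The groups were well separated, and Pdk1 fell 1.79-fold (log2 change -0.84, SE 0.12, limma adjusted p = 0.00547). Pdk3, a related kinase, overlapped between groups (log2 change -0.20, 95% confidence interval -0.51 to 0.12). Pfkfb3 and Pfkfb4 make and break fructose 2,6-bisphosphate, the activator of phosphofructokinase. Pfkfb3 read 133, 136 and 143 in siControl and 87.5, 120 and 140 in siSpt6, with siSpt6 replicates 1 and 2 below all siControl arrays and replicate 3 among them (log2 change -0.27, 95% confidence interval -0.71 to 0.17). Pfkfb4 was dim in both groups, at 9.15 to 11.4, and had a log2 change of -0.093 (95% confidence interval -0.38 to 0.20).

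Transporters at either end of the pathway differed in their calls. Slc16a1 (MCT1), a carrier of lactate and pyruvate, read 724, 584 and 552 in siControl and 306, 248 and 260 in siSpt6. Each siSpt6 array lay below the lowest siControl array by a wide margin, and the gene fell 2.28-fold (log2 change -1.19, SE 0.15, limma adjusted p = 0.00411). Slc16a3 (MCT4), the lactate exporter typical of strongly glycolytic cells, read 90.7, 118 and 120 in siControl and 57.6, 43.8 and 50.8 in siSpt6, a 2.16-fold fall (log2 change -1.11, SE 0.17, limma adjusted p = 0.00690). Slc2a1 (GLUT1), the main glucose carrier of many proliferating cells, read 163, 219 and 223 in siControl and 175, 137 and 232 in siSpt6. Its groups overlapped fully (log2 change -0.17, 95% confidence interval -0.71 to 0.36), and its sign turned without siSpt6 replicate 2. Slc2a3 (GLUT3), a high-affinity glucose carrier, read 156, 222 and 278 in siControl and 106, 171 and 183 in siSpt6 (log2 change -0.52, SE 0.28, limma adjusted p = 0.278), and passed the threshold only with the replicate number as a block. A difference in response between lactate and glucose carriers was not tested across families.

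None of the 3 genes of oxygen sensing passed the limma threshold (1 was higher and 1 lower at an unadjusted p under 0.05). Hif1a, the oxygen-regulated subunit of HIF-1, is controlled mainly at the protein level, which arrays do not measure. It read 239, 194 and 235 in siControl and 318, 229 and 313 in siSpt6, higher on 2 of 3 siSpt6 arrays than on any siControl array (log2 change 0.35, 95% confidence interval -0.053 to 0.76, limma adjusted p = 0.222). Egln1 (PHD2), the main HIF prolyl hydroxylase, read 122, 136 and 106 in siControl and 80.5, 95.9 and 71.7 in siSpt6. The groups did not overlap, and the log2 change of -0.55 (SE 0.16) lay just beyond the threshold (limma adjusted p = 0.0597), passing it in 4 of 14 alternatives. Egln3 (PHD3) had values on 2 arrays of each group only, 1.20 and 1.22 in siControl and 2.68 and 1.72 in siSpt6, close to the lowest values of the table (0.872), and the fit left out the blank arrays (limma adjusted p = 0.0995, and 0.0406 after quantile normalization).

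HIF targets outside glycolysis went in both directions. Vegfa, the main growth factor for blood vessels, had the largest fall of the set, from 18.9, 16.2 and 15.2 in siControl to 5.14, 3.64 and 4.94 in siSpt6, 3.69-fold (log2 change -1.88, SE 0.17, limma adjusted p = 0.00135). Its probe was dimmer than the median of every array, the lowest of which was 29.97, in both groups, and these values have no stated detection limit. Ankrd37, an ankyrin-repeat gene induced by HIF-1, read 69.2, 66.7 and 65.1 in siControl and 35.2, 31.3 and 37.4 in siSpt6 and fell 1.94-fold (log2 change -0.96, SE 0.12, limma adjusted p = 0.00373). Ndrg1, a stress-responsive gene induced by hypoxia, rose 1.56-fold from 11.4 ± 2.04 to 17.5 ± 0.132, a call lost after cyclic loess normalization (limma adjusted p = 0.0963) and in 5 of 6 fits that left out an array (highest limma adjusted p 0.0984). P4ha1, a subunit of the collagen prolyl hydroxylase, overlapped between groups (log2 change -0.078, 95% confidence interval -0.40 to 0.24). Car9, a carbonic anhydrase that is a classic marker of hypoxia, was dim and overlapped too (7.63 to 10.4 against 8.25 to 12.4). Higd1a, a mitochondrial protein induced by hypoxia, had 2 probes that disagreed in sign, the brighter at a log2 change of -0.30 and the dimmer at 0.37, neither past the threshold (limma adjusted p = 0.146 and 0.235).

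Neighbouring pathways were read from 7 further lists that exclude the set. Of their 109 tested genes 21 fell and 9 rose, with a median log2 change of -0.071. Over all tested genes 9.65% fell and 7.4% rose, and in the brightest bin 22.5% fell and 7.22% rose. Among 19 other enzymes of sugar metabolism 4 fell and 2 rose. Pck2, the mitochondrial enzyme that makes phosphoenolpyruvate, fell from 904 ± 47.4 to 302 ± 12.4, and Galk1, galactokinase, from 906 ± 24.6 to 317 ± 43.2 (log2 changes -1.58 and -1.52, n = 3 each). Eno3, the muscle enolase, rose from 139 ± 5.92 to 291 ± 14.1 (log2 change 1.07, limma adjusted p = 0.00210), against the fall of Eno1. The other rise was Gapdhs, the sperm form of glyceraldehyde phosphate dehydrogenase, at the dim end of the table (1.67 to 3.50), and lost without siSpt6 replicate 1 (limma adjusted p = 0.0513).

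Pyruvate oxidation and the TCA cycle burn pyruvate in mitochondria. Their log2 changes ran from -0.72 to 0.39 and from -0.82 to 0.85. For comparison, 9.65% of all tested genes fell and 7.4% rose. Of 12 genes of pyruvate oxidation 2 fell, Pdhx and Dld, both subunits of the pyruvate dehydrogenase complex (log2 changes -0.56 and -0.59), and either call was lost after quantile normalization (limma adjusted p = 0.0635 and 0.167); 0 rose (1 at an unadjusted p under 0.05, limma). Of 17 TCA cycle genes 5 fell and 1 rose. Idh3a, a subunit of isocitrate dehydrogenase, fell by 0.82 on the log2 scale, and Suclg1, a subunit of succinyl-CoA ligase, by 0.63, the latter lost after quantile normalization (limma adjusted p = 0.128). Sucla2, another subunit of that ligase, rose (log2 change 0.85), a call missing from 4 of 6 fits that left out an array (highest limma adjusted p 0.0700). In the pentose phosphate list 3 of 9 fell, among them Tkt, transketolase (log2 change -0.90), and Prps1, which makes the activated ribose for nucleotides (-0.72). The TCA cycle and pentose phosphate lists were bright, with median log2 intensities of 10.1 and 9.42. In the brightest bin, which starts at 7.98, 22.5% of all genes fell. Of 12 other sugar and monocarboxylate transporters 0 fell and 0 rose by limma (0 at an unadjusted p under 0.05). This list was dimmer, with a median log2 intensity of 5.44. In the brightness bin from 4.36 to 6.18, 7.69% of all genes fell and 8.80% rose, so few calls would be looked for among 12 genes.

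Parts of the HIF pathway other than the 3 genes of oxygen sensing held few calls. Of 13 tested 2 rose and 0 fell (0 at an unadjusted p under 0.05, limma), while 7.4% of all tested genes rose. The median log2 change was 0.36, with 9 positive and 4 negative values, most of them not called. For the 3 genes of oxygen sensing the median, 0.35, is the value of Hif1a, beside Egln1 at -0.55 and Egln3 at 0.82, none of them called. Rbx1, the ring subunit of the VHL ligase and of other cullin ligases, read 199, 188 and 179 in siControl and 322, 329 and 300 in siSpt6 (log2 change 0.75, SE 0.11, limma adjusted p = 0.00685). Eloc, elongin C of the same ligase, rose from 192 ± 12.0 to 303 ± 33.1, a call missing from 4 of 6 fits that left out an array (highest limma adjusted p 0.0623). Vhl itself had a log2 change of 0.36 and was not called (limma adjusted p = 0.132). Among 28 further HIF targets 7 fell and 4 rose, with a median of 0.013. Beside these counts, 9.65% of all tested genes fell and 7.4% rose, and 22.5% fell in the brightest bin. Tfrc, the transferrin receptor, and Ero1a, an oxidase of the endoplasmic reticulum, fell by 1.86 and 1.56 on the log2 scale. Tgfb3, a TGF-beta ligand, and Insig2, which holds back sterol synthesis, rose by 2.92 and 1.44. Tgfb3 was dim in siControl, at a mean of 4.45 against 33.6 in siSpt6, and its rise was 2.35 with a pseudocount. The targets named here have other known regulators besides HIF.

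**Figure D5:**
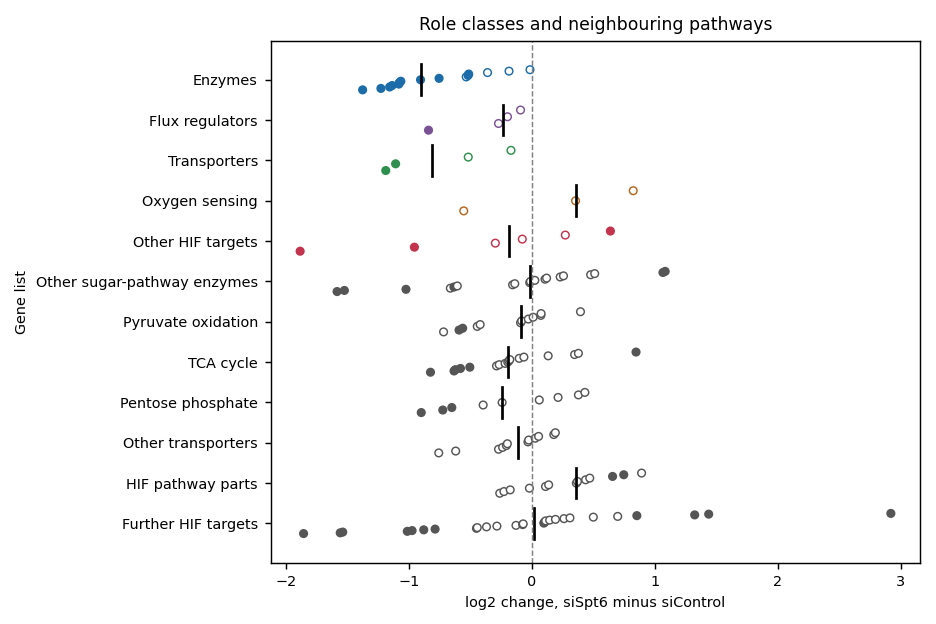
Log2 change, siSpt6 minus siControl (horizontal axis), of each tested gene in the 5 role classes of the set (coloured) and 7 neighbouring lists (grey); filled points passed the limma adjusted p threshold, black bars are list medians and the dashed line is the median of all 15224 tested genes. The enzymes have their median at -0.91, while the neighbouring lists have theirs between -0.24 and 0.36.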

How the data were processed

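RNA from 6 samples, 3 per group, was measured on 1-colour arrays; groups and replicate numbers came from the sample titles. The authors deposited intensity values on a linear scale, 1 column per array, made from Cy5-labelled amplified RNA per the labels' protocols; how background was treated and arrays were scaled is not stated in those sources. Array medians lay between 29.97 and 29.998, and 4.69% to 8.29% of probes were blank on an array and taken as missing.

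Probes were named from the platform's gene table and updated with RefSeq symbols (GRCm38.p6): 16631 of 23473 had a symbol. The deposited intensity values were log2-transformed without a pseudocount. Probes with values on at least 2 of 3 arrays per group (21584) were fitted with limma 3.58.1 in R 4.3.3 (lmFit and eBayes, group as the only term, two-sided), with Benjamini-Hochberg adjustment over all of them and a threshold of 0.05. A gene was read through its brightest tested probe; 2 genes of the set have a second. A fold is the log2 change on a linear scale. The number of arrays limits the precision. The genes and lists were chosen with earlier results of these data known. All genes of the set are named, and from each neighbouring list the 2 rises and 2 falls, where there were as many, of smallest adjusted p. Vhl and the cell type markers were named after their values were seen. Scripts were tested on simulated data. Promoter windows came from RefSeq. Alternatives changed the normalization, pseudocount, filters, eBayes options, replicate block, probe choice and each array in turn.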

Additional observations from a re-analysis of the deposited data

How the results depend on the processing

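Of the 17 calls in the set, 13 kept direction and side of the threshold in every alternative that tested them; Gpi1, Pfkm, Pgam1 and Ndrg1 did not, and causes were not tested. Quantile normalization, cyclic loess and bright probes only gave medians of -0.46, -0.47 and -0.75 for the set and -0.61, -0.60 and -0.99 for the enzymes. The mean of a gene's probes gave -0.75 for the enzymes and 0.034 for oxygen sensing and HIF targets, whose median was -0.19 with complete probes and -0.43 with bright probes, which test fewer genes. The count that rose in the set, and in oxygen sensing and HIF targets, was 2 after quantile normalization, and 0 after cyclic loess and with bright probes. Signs turned for Aldoc (0.022) and Pdk3 (0.012) after quantile normalization, for Higd1a (0.034) with the mean of its probes, and for Slc16a1 minus Slc16a3 after quantile (0.027) and cyclic loess (0.047) normalization. Of changed probes, 45.5% were higher as deposited, 57.3% after quantile normalization and 53.6% with cyclic loess.

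With 1 array left out, 1958 to 2407 probes changed, against 3525 (1958, 2062, 2175 and 2126 without siControl replicate 1, siControl replicate 2, siSpt6 replicate 1 and siSpt6 replicate 2), 13 to 14 falls and 0 to 1 rises in the set, 0 to 1 rises in oxygen sensing and HIF targets and 12 to 18 falls in the neighbouring lists (13, 12 and 13 without siControl replicate 1, siControl replicate 2 and siSpt6 replicate 1). Medians ran from -0.60 to -0.50 in the set, -0.34 to -0.19 in the flux regulators and -0.14 to 0.0069 in oxygen sensing and HIF targets. Signs turned in such fits for Aldoc (-0.14 to 0.074, above 0 without siControl replicate 1, siControl replicate 3 or siSpt6 replicate 3), P4ha1 (-0.14 to 0.0069) and Slc16a1 minus Slc16a3 (-0.23 to 0.17) without siControl replicate 1, Pfkfb3 minus Pfkfb4 (-0.38 to 0.065) without siSpt6 replicate 1 and Slc2a1 (-0.36 to 0.016) without siSpt6 replicate 2.

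With the replicate number as a block, 3594 probes changed and 18 genes of the set fell: Hk1, Egln1 and Slc2a3 passed and Pfkm did not. The numbers share no stated origin; deviations of same-numbered arrays correlated at 0.35, 0.076 and 0.26, each array best with its own number.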

Other observations

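Some genes of glycolysis had values in too few arrays for a test. Ldhb, the lactate dehydrogenase subunit typical of heart, was blank on the 3 siControl arrays and read 1.42, 1.38 and 1.19 on the siSpt6 arrays. Pgk2, the testis form of phosphoglycerate kinase, was blank in siControl and read 1.60 and 1.89 on 2 siSpt6 arrays. Slc2a2 (GLUT2), the liver and islet glucose carrier, read 1.67 on 1 siControl array and 1.39, 2.49 and 2.55 in siSpt6. All these values lie below 2.66, the 10th percentile of the table. Gapdh, often used as a reference gene, was blank throughout, and the sources used here do not say why.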
